A study of Mus musculus with 12 samples.

Results

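A set of 8 genes of the mouse liver is described here, namely Foxq1, Tsc22d1, Slc20a1, Slc15a2, Tifa, Cib3, Gm10804 and 1810019D21Rik. They were grouped as lying outside the classical heat shock, acute phase and interferon programmes, and this grouping was not tested. These 8 of the 25239 genes in the count table were chosen from their liver values in an earlier look at the same libraries, for a clear separation of heat stress from control. The liver levels are therefore given as a description with no test, while the brain levels, which did not enter the choice, were tested. The animals were male wild-type C57BL6/J mice aged 24 months, and every group shared this strain, sex and age. Heat stress mice were kept at 40 °C and 60% relative humidity for 3 hours a day over 15 days, and the mice labelled Control were their comparison. Polyadenylated RNA of brain and of liver was sequenced from 3 mice per group, which gave 12 libraries. The labels do not tie a brain library to a liver library of the same animal. Each library read a piece of whole tissue, so more or fewer cells of a type and more or less RNA per cell cannot be told apart in any value below.

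The genes fall into several kinds. Foxq1 encodes a transcription factor of the forkhead family and is known from the satin coat mutation of the mouse, and Tsc22d1 encodes a leucine zipper protein first found as a transcript induced by transforming growth factor beta. Slc20a1 and Slc15a2 encode transporters at the cell surface, the former bringing phosphate into the cell together with sodium and the latter small peptides together with protons. Tifa encodes an adaptor protein that joins the kinase Alpk1, a sensor of bacterial sugar nucleotides, to Traf6 and so to the NF-kB pathway, and Cib3 encodes a small calcium-binding protein of the calcium and integrin binding family. Gm10804 and 1810019D21Rik are annotated without a protein product.

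Library totals lay between 10466198 and 15609040 counts, and levels are given as CPM, which scales the counts of a library to its TMM-normalized total. Hepatocyte markers summed to between 81490 and 127266 CPM in every liver library and neuron markers to between 6080 and 8078 CPM in every brain library, as the tissue labels state. Control replicate 1 and heat stress replicate 2 of the liver stood apart through skeletal muscle transcripts, whose 15 markers summed to 555 and 2981 CPM there and to between 20.8 and 31.8 CPM in the other 4 liver libraries. In the liver, the quasi-likelihood test of edgeR called 0% of the 12296 tested genes at a Benjamini-Hochberg adjusted p under 0.05, with 718 genes at an unadjusted p under 0.05, and DESeq2 called 0.52% of the 11732 genes to which it gave an adjusted p. The edgeR count in the liver rose from 0 to 25 genes without control replicate 1 and to 81 without both libraries that carried muscle transcripts. All 8 genes passed the filter on low counts in the liver, and 5 of them passed it in the brain.

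Among the regulators of transcription, Foxq1 was higher and Tsc22d1 lower in every heat stress liver than in any control liver. Foxq1 (mm10, chr13:31556134-31560976, plus strand) stood at 8.07, 4.89 and 3.73 CPM in control livers 1, 2 and 3 and at 18, 18.4 and 23.5 CPM in heat stress livers 1, 2 and 3. The highest control liver for Foxq1 was one of the libraries with muscle transcripts, and the lowest heat stress liver was still 2.23 times above it. The difference in Foxq1 was 1.83 on the log2 scale (SE 0.28, n = 3 per group), a 3.54-fold higher level, and it was 2.25 without both libraries that carried muscle transcripts. Tsc22d1 (chr14:76414961-76507765, plus strand) stood at 144, 137 and 91 CPM in the control livers and at 49.7, 59.7 and 47.5 CPM in the heat stress livers. Control liver 3 was the lowest of its group for Tsc22d1 and was 1.52 times the highest heat stress liver. The log2 difference of Tsc22d1 was -1.25 (SE 0.21), which is a 2.38-fold lower level, from 124 ± 29.1 to 52.3 ± 6.53 CPM (mean ± SD, n = 3).

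The stretch before the first annotated start of Tsc22d1 is shown because it carries the letters of a STAT-type motif close to the start. The sequence is that of RefSeq promoters on GRCm38, which is mm10, at chr14:76414711-76414960 on the plus strand, 5′ to 3′, and capitals mark the match to TTCNNNGAA.
Tsc22d1: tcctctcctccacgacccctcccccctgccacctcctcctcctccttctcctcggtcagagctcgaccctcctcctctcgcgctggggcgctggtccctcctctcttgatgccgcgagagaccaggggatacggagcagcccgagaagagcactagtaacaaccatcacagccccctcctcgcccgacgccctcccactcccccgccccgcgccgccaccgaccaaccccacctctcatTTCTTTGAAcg
The match begins 11 bases before the start, and TTCNNNGAA was present in 8.3% of the 32851 mouse promoter windows searched on both strands. A match of letters describes the window only and says nothing of whether a factor binds there.

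Of the transporters, Slc20a1 separated the groups and Slc15a2 did not. Slc20a1 (chr2:129198764-129211616, plus strand) stood at 28.7, 25.1 and 43.4 CPM in the control livers and at 62.9, 57.9 and 79.4 CPM in the heat stress livers. Each heat stress liver was above each control liver for this phosphate transporter, with the closest pair 1.33-fold apart. The Slc20a1 mean was 32.4 ± 9.7 CPM in control and 66.7 ± 11.3 CPM in heat stress livers, a log2 difference of 1.04 (SE 0.23). Slc15a2 (chr16:36750177-36784962, minus strand) stood at 0.258, 1.79 and 2.24 CPM in the control livers and at 5.66, 1.81 and 6.31 CPM in the heat stress livers. Heat stress liver 2 lay below control liver 3 for this peptide transporter, and the lowest control value came from control liver 1, so that both libraries with muscle transcripts were the lowest of their groups. The log2 difference of Slc15a2 was 1.73 with a standard error of 0.65, and it was 1.17 without control replicate 1. The Slc15a2 values rest on 4 to 80 counts per library.

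The window before the Slc20a1 start is shown because it holds the E-box CACGTG 2 times, the letters to which the clock proteins Clock and Arntl are known to bind. It lies at chr2:129198523-129198763 on the plus strand of GRCm38 (RefSeq promoters), is given 5′ to 3′ and has the E-boxes in capitals.
Slc20a1: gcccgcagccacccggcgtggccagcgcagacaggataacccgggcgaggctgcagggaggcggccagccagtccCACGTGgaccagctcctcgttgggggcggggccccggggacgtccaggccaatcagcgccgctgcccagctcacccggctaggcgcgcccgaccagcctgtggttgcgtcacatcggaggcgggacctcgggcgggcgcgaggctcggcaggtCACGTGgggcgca
These E-boxes begin 175 and 22 bases before the start in RefSeq, and 75.5% of the bases of this window are G or C. CACGTG was present in 7.15% of all promoter windows, searched on both strands.

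Tifa, the adaptor of the NF-kB pathway, did not separate the groups, whereas the calcium-binding protein gene Cib3 did. Tifa (chr3:127789805-127832164, plus strand) stood at 15.4, 21.8 and 22.4 CPM in the control livers and at 37.3, 20.5 and 38.3 CPM in the heat stress livers. Heat stress livers 1 and 3 lay above all controls for Tifa, and heat stress liver 2 lay below control livers 2 and 3. The log2 difference of Tifa was 0.69 (SE 0.26), a 1.62-fold higher mean, and with a library left out it ran from 0.52 without control replicate 1 to 0.93 without heat stress replicate 2. Cib3 (chr8:72204335-72212837, minus strand) stood at 2.13, 0.489 and 1.96 CPM in the control livers and at 9.38, 5.37 and 4.1 CPM in the heat stress livers. Every heat stress liver exceeded every control liver for Cib3, with heat stress liver 1 the highest and control liver 2, with 6 counts, the lowest. The log2 difference of Cib3 was 2.03 (SE 0.48), which is 4.07-fold, from 1.53 ± 0.902 to 6.28 ± 2.76 CPM.

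Of the genes without a protein product, Gm10804 was higher and 1810019D21Rik lower in every heat stress liver. Gm10804, annotated as a long intergenic RNA (chr2:93452819-93469871, plus strand), stood at 0.258, 0.326 and 0 CPM in the control livers and at 2.61, 2.37 and 6.94 CPM in the heat stress livers. These levels rest on 4, 4 and 0 counts in the control group against 35, 34 and 88 in the heat stress group, and the closest pair of libraries was 7.26-fold apart, the widest gap of the 8 genes. The log2 difference of Gm10804 was 4.20 (SE 0.70), and it was 3.54 without heat stress replicate 3, the liver in which it was highest. 1810019D21Rik, annotated as a processed transcript (chr8:106135400-106138525, plus strand), stood at 35.6, 36.5 and 25.6 CPM in the control livers and at 15.6, 13.9 and 13.7 CPM in the heat stress livers. All heat stress livers were below all control livers for 1810019D21Rik, and the heat stress group had the narrower spread, with a mean of 14.4 ± 1.06 against 32.5 ± 6.01 CPM. Its log2 difference was -1.18 (SE 0.19), a 2.26-fold lower level.

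Both transcripts overlap a protein-coding gene on the opposite strand, and the use of strand in counting is not given in the sources used here, so reads of such partners may not be told apart. The same holds for Foxq1, which A530084C06Rik, annotated as protein-coding, overlaps on the opposite strand, for Slc20a1, overlapped there by Gm4430 and 9830144P21Rik, and for Slc15a2, overlapped by the pseudogene Gm8425. Cd82, a membrane protein gene of the tetraspanin family on the minus strand across the Gm10804 start, lay between 50.2 and 80.4 CPM in the control livers and between 66.6 and 83.2 CPM in the heat stress livers, and its groups overlapped. Esrp2, the gene of an epithelial splicing regulator opposite 1810019D21Rik, lay between 31.4 and 58.5 CPM in the control livers and between 29.9 and 41.9 CPM in the heat stress livers, again with overlap. The next protein-coding genes, Tspan18 and Gm10803 around Gm10804 and Nfatc3 and Pla2g15 around 1810019D21Rik, had overlapping liver groups where they were measured, with log2 differences of 0.45 (SE 0.39) for Tspan18, 0.03 (SE 0.16) for Nfatc3 and -0.22 (SE 0.21) for Pla2g15. Ap1ar, which the annotation places across Tifa on the opposite strand, had a log2 difference of 0.03. The window before 1810019D21Rik (RefSeq promoters on GRCm38, chr8:106135150-106135399, plus strand, 5′ to 3′) is shown as the start region of the gene with the highest level per length in the control livers, and it has no capitals because none of the motifs searched was found in it.
1810019D21Rik: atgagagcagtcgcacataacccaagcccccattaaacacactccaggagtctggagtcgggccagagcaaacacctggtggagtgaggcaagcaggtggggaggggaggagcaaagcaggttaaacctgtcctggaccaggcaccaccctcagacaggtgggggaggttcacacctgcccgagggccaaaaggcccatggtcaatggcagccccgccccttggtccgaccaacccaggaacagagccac
RefSeq promoter windows were at hand for 7 of the 8 genes, 13 windows in all, and Foxq1 was not among them. Beyond the matches above, GAANNTTC, a heat shock element core, was found 91 bases before a second start of Slc20a1, and its other form TTCNNGAA 192 bases before a later start of Tsc22d1. These letters were present in 7.86% and 8.52% of all windows. The E-box CACGTG was also found 33 bases before a later start of Tsc22d1, and TTCNNNGAA also 156 bases before the Gm10804 start, so the genes with a match include higher and lower ones. ACANNNTGT, a core of the glucocorticoid receptor motif, was found 79 bases before a second start of Tifa and in 6.85% of all windows. The D-box TTATGTAA, found in 0.94% of all windows, and the endoplasmic reticulum stress element, found in 0.12%, were in none of the 13.

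**Figure D1:**
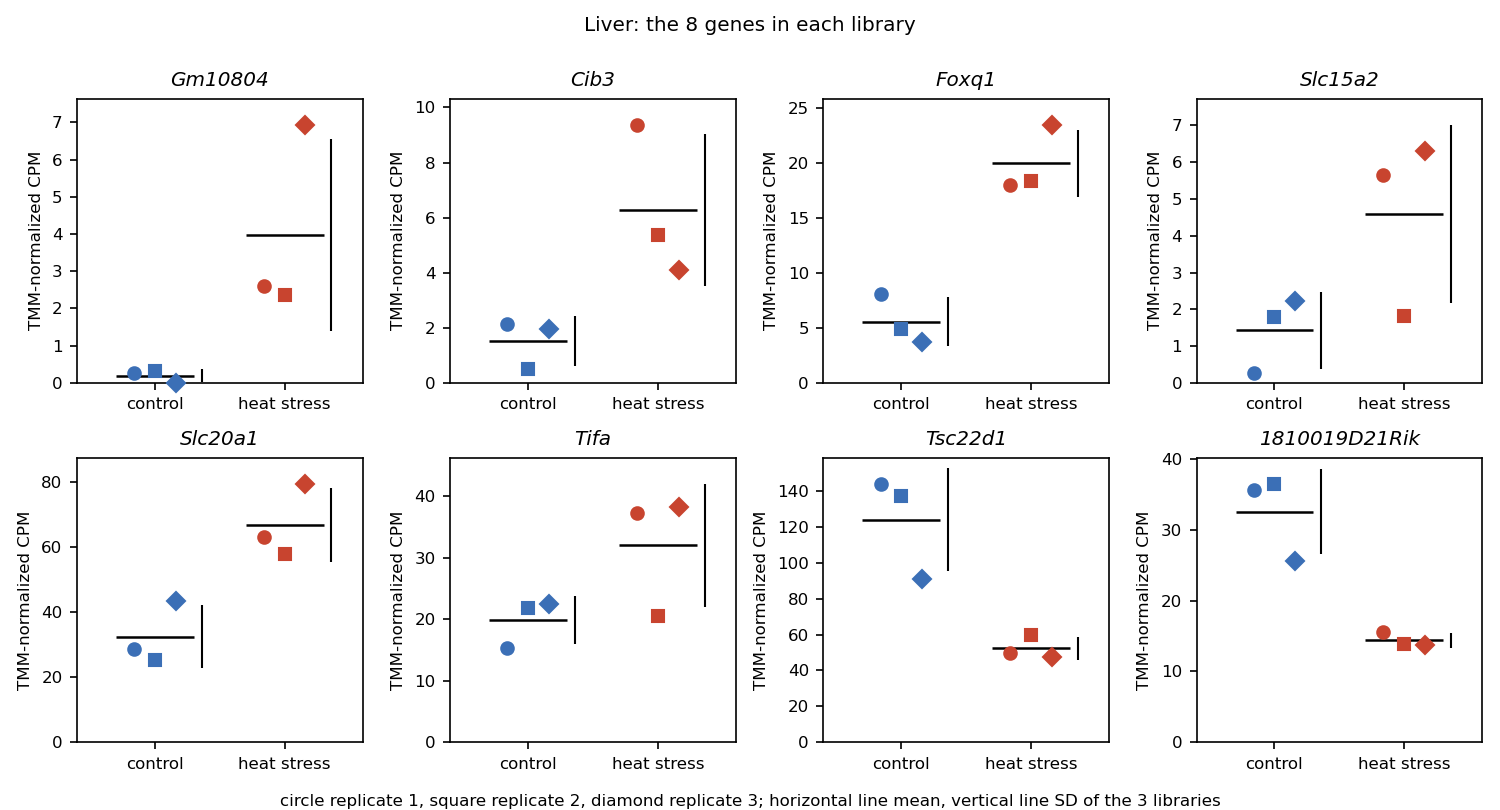
Levels of the 8 genes in the 6 liver libraries, in TMM-normalized CPM on a linear axis from 0, with a panel per gene, a symbol per replicate, the mean as a horizontal line and the SD of 3 libraries as a vertical line. The groups do not overlap in 6 panels, while heat stress replicate 2 falls among the controls for Slc15a2 (1.81 CPM) and Tifa (20.5 CPM).

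Seen side by side, 6 of the 8 genes separated the liver groups without overlap, 4 of them higher (Gm10804, Cib3, Foxq1 and Slc20a1) and 2 lower (Tsc22d1 and 1810019D21Rik) under heat stress. Among all tested liver genes 5.38% separated upward and 5.73% downward, and nothing is read from the members' share because this contrast chose them. Of the members just inside and just outside the line, Slc20a1 kept a gap of 1.33-fold, and for Tifa the lowest heat stress liver was 0.916 times the highest control liver. Without both libraries that carried muscle transcripts, an alternative added after seeing the data, all 8 genes separated the remaining 2 against 2 livers, where 21.6% of all tested genes separated upward and 20% downward. The part of muscle tissue in these values was not tested. Control liver 2 and heat stress livers 1 and 3 carry the suffix 2nd in their column names, which the sources used here do not explain. Both libraries with muscle transcripts lack the suffix, and heat stress liver 2 is the only heat stress liver without it. Suffix and muscle transcripts therefore cannot be told apart among the heat stress livers. Within the libraries with the suffix the log2 difference of Tifa was 0.79 and within those without it 0.14, and for Slc15a2 these differences were 1.65 and 0.99. For the 6 genes that separated the groups the direction within either set is fixed by that separation, and either set has a single library in one of its groups, so the sizes alone are described. Foxq1 was at 2.04 with the suffix and 1.72 without it, and Tsc22d1 at -1.50 and -0.94. On the log2 scale the size differed most for Cib3, at 3.31 with the suffix and 1.33 without it, and it was 1.49 and 0.71 for Slc20a1.

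In the brain, the comparison asked whether the same genes differed there, and 0 of the 5 tested members passed. Foxq1 stood at 3.57, 2.79 and 2.67 CPM in the control brains and at 2.4, 3.49 and 2.27 CPM in the heat stress brains, with a log2 difference of -0.15 (SE 0.28, edgeR adjusted p = 0.79). Tsc22d1 stood at 386, 418 and 313 CPM in the control brains and at 365, 423 and 400 CPM under heat stress, a log2 difference of 0.09 (SE 0.14, edgeR adjusted p = 0.749). For both regulators the heat stress brains lay in the range of the controls or close around it. Slc20a1 stood at 182, 130 and 172 CPM in the control brains and at 136, 155 and 172 CPM under heat stress (log2 difference -0.07, SE 0.15, edgeR adjusted p = 0.83), and the sign of this difference turned without control replicate 1 or without heat stress replicate 1. Slc15a2, known in brain from astrocytes and the choroid plexus, stood at 25.8, 35.4 and 32.7 CPM in the control brains and at 30.4, 45.1 and 38.6 CPM under heat stress. Heat stress brains 2 and 3 exceeded all controls for Slc15a2 and heat stress brain 1 did not, and the log2 difference of 0.28 (SE 0.17) had an edgeR adjusted p of 0.372. Tifa stood at 8.02, 12.1 and 11.7 CPM in the control brains and at 11.8, 15.9 and 12.2 CPM under heat stress, with a log2 difference of 0.33 (SE 0.20, edgeR adjusted p = 0.385).

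In the brain 0 of the 5 genes separated the groups without overlap, beside 12.9% of all 14806 tested brain genes that separated upward and 12% downward. edgeR called 0% of all tested brain genes at an adjusted p under 0.05, with 2969 at an unadjusted p under 0.05, and none of the 5 members was among the latter. DESeq2 called 7.95% of the brain genes to which it gave an adjusted p and none of the 3 members that had one, whose adjusted p lay between 0.358 and 0.82. The tests do not show that the 5 genes are equal in the brain groups, and whether the heat stress difference itself differs between liver and brain was not tested. Cib3 and Gm10804 had 1 count each over the 6 brain libraries, both in heat stress replicate 2, and 1810019D21Rik had 2, 0 and 0 counts in the control brains and 1, 1 and 0 under heat stress. Those genes were not detectable above a count limit of 3 per library, which corresponds to between 0.206 and 0.284 CPM in the brain and covers counting error only. Esrp2, the partner opposite 1810019D21Rik, was likewise near 0 in the brain, with at most 0.243 CPM.

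**Figure D2:**
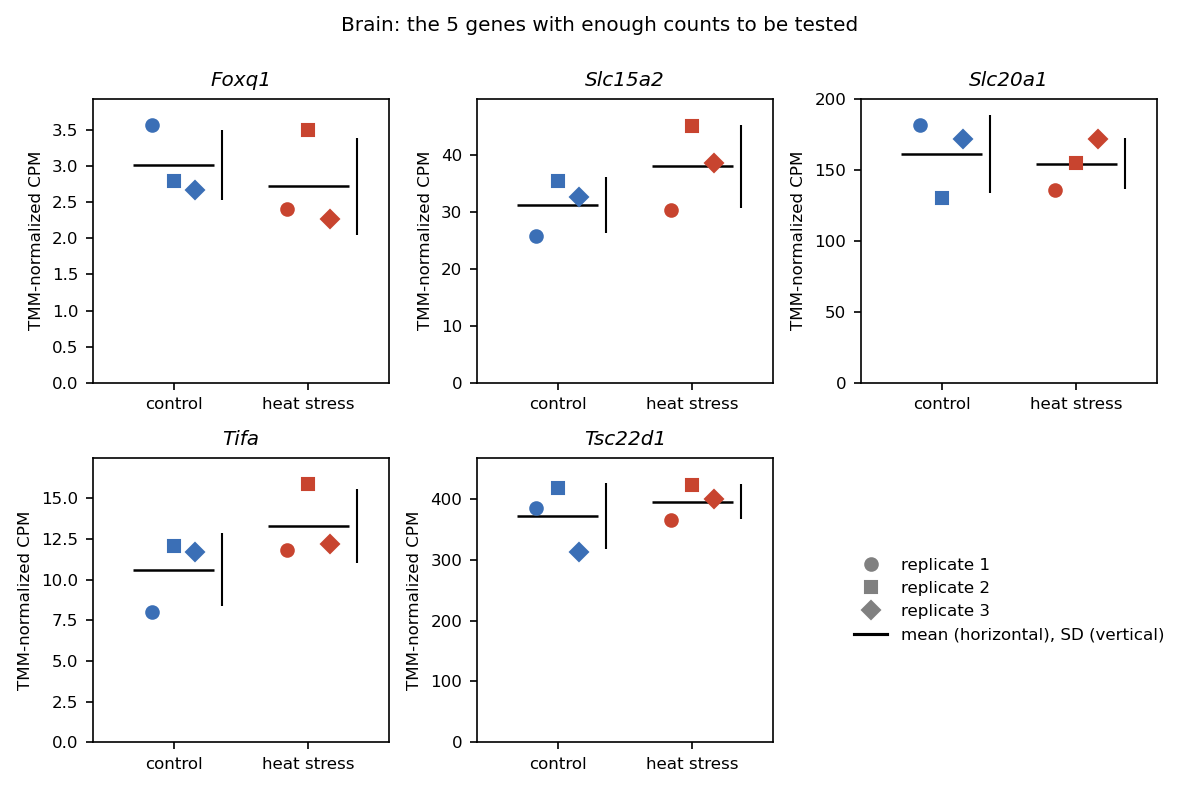
Levels of the 5 tested genes in the 6 brain libraries, drawn as for the liver in TMM-normalized CPM on linear axes from 0. The heat stress and control points overlap in every panel, with Tsc22d1 lying between 313 and 423 CPM.

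**Figure D3:**
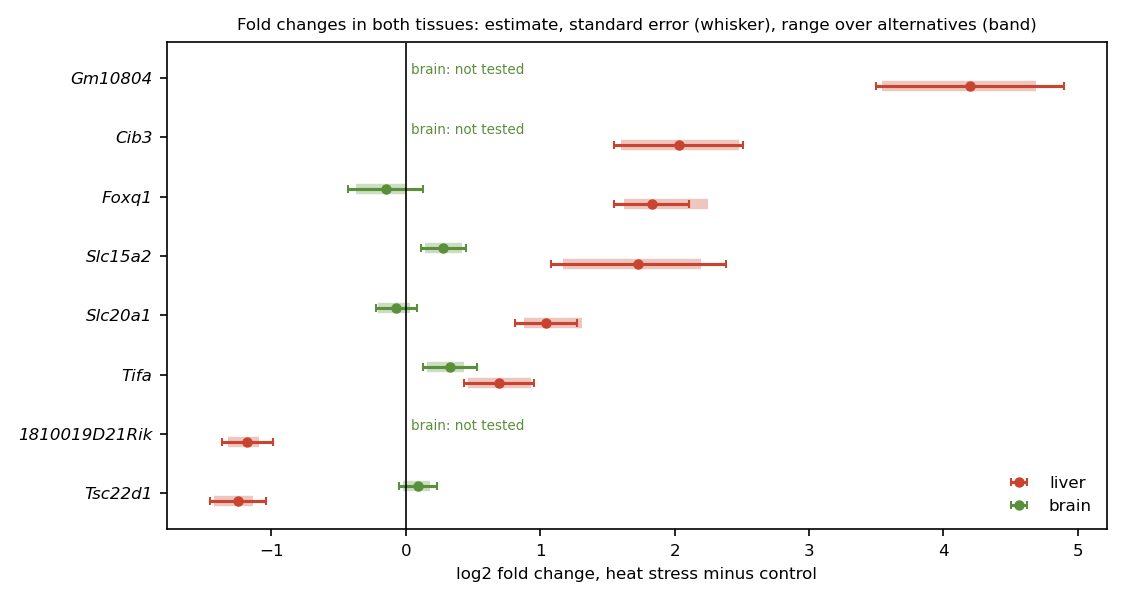
Log2 fold changes of heat stress over control in liver (red) and brain (green), with the standard error as whiskers and the range over the alternative settings as a band. The liver estimates run from -1.25 for Tsc22d1 to 4.20 for Gm10804, and the 5 brain estimates lie between -0.15 and 0.33.

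Per length of the annotated exons, levels can be compared between genes. In FPKM, here the CPM of a gene on its library total divided by its exon length in kilobases, the control livers held most of 1810019D21Rik (21.2 ± 3.71, n = 3), then Tsc22d1 (13.9 ± 3.1), then Tifa (6.29 ± 1.31) and Slc20a1 (5.88 ± 1.83), whose ranges overlapped. Foxq1 (1.16 ± 0.447), Cib3 (0.764 ± 0.449), Slc15a2 (0.198 ± 0.145) and Gm10804 (0.06 ± 0.0532) followed, each overlapping its neighbour in this order. Under heat stress the order in FPKM differed, with Slc20a1 at 11.7 ± 1.28, Tifa at 9.76 ± 2.58, 1810019D21Rik at 9.17 ± 0.849, Tsc22d1 at 5.77 ± 1.12, Foxq1 at 4.05 ± 0.439, Cib3 at 3.09 ± 1.35, Gm10804 at 1.17 ± 0.693 and Slc15a2 at 0.602 ± 0.297. The range of Tifa, from 6.78 to 11.4 FPKM, overlapped those of Slc20a1, 1810019D21Rik and Tsc22d1. In the control brains Tsc22d1 led at 41.1 ± 4.37 FPKM, above its liver level, followed by Slc20a1 at 29 ± 5.83 FPKM, Slc15a2 at 4.24 ± 0.633 FPKM and Tifa at 3.31 ± 0.705 FPKM, and the last pair overlapped. Foxq1 was at 0.62 ± 0.101 FPKM in the control brains, and the other genes were at or below 0.0294 FPKM there. The lowest control brain for Slc15a2, at 3.51 FPKM, was above the highest heat stress liver, at 0.796 FPKM, whereas 1810019D21Rik, Cib3 and Gm10804 were near 0 in the brain.

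The relatives of the 8 genes, taken from lists of family and pathway members, were counted in the liver next. Over all tested liver genes 5.38% separated upward and 5.73% downward, and lists of this size are too short for a count of 0 to set them apart from that share. Of 16 other tested forkhead genes, 0 separated the groups in either direction, and their median log2 difference was -0.01, beside 0.01 over all tested genes. Of 3 other TSC22 domain genes, 1 separated, Tsc22d3, the glucocorticoid-induced leucine zipper gene, which like Tsc22d1 was lower (77.5 ± 17.4 to 43.9 ± 4 CPM, log2 difference -0.82, edgeR adjusted p = 0.431). None of the 3 other tested peptide transporters of the Slc15 family separated, with a median of 0.23. Among them Slc15a4 had the highest level, at 21.6 and 25.2 CPM in control and heat stress. The other phosphate transporter genes tested, Slc20a2 and Xpr1, the phosphate exporter, had log2 differences of 0.18 and 0.15 with overlapping groups. Neither of the 2 other tested genes of the calcium and integrin binding family separated (median -0.11), among them Cib1 at 52.9 and 48.2 CPM, and Cib4 was at 0 in every liver library. Of 21 other genes of the Tifa pathway, 0 separated, with a median of 0.13. The kinase gene Alpk1, which lies 9278 bases from Tifa, had a log2 difference of 0.48 (SE 0.40). The NF-kB subunit gene Relb was at 0.91 (SE 0.44), on 12 to 46 counts per library. Other pathway genes were lower, among them Traf2 at -0.28 (SE 0.25) and Tab3 at -0.29 (SE 0.21). The kinase gene Chuk had a mean of 158 in control and 144 CPM in heat stress livers. No relative had an adjusted p under 0.05 in edgeR's test. Tsc22d3 was the only relative tested in the liver with an unadjusted p under 0.05.

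**Figure D4:**
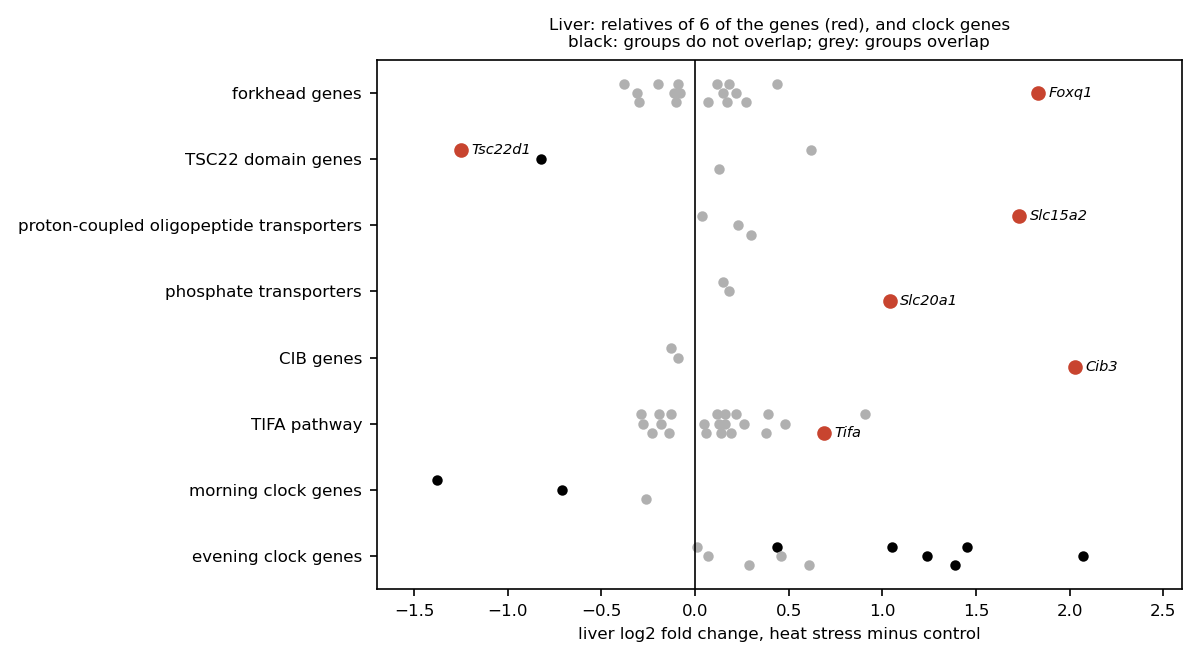
Liver log2 fold changes of heat stress over control for the family or pathway of 6 of the genes and for clock genes, a point per tested gene, red for the 6 genes, black where the groups do not overlap and grey where they do. Among the relatives only Tsc22d3, at -0.82, is black, whereas the evening clock genes hold 6 black points between 0.44 and 2.07.

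In the brain, where 12.9% of all tested genes separated upward and 12% downward, some relatives separated in either direction, with no adjusted p under 0.05 in edgeR's test, and nothing particular to them is read from the counts. Of 19 other tested forkhead genes, 1 was higher without overlap (Foxp2, log2 difference 0.80) and 1 lower (Foxo3, -0.36). Of the Tifa pathway's 21 others, 2 were higher (Tab2 and Tab3) and 4 lower, among them Alpk1 at -0.56. The phosphate transporter gene Slc20a2, at -0.31, and Tsc22d2, at 0.18, also separated.

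Some genes of the circadian clock and some markers of T and NK cells also separated the liver groups. The share over all tested liver genes was 5.38% upward and 5.73% downward. The lists of clock genes and cell type markers were chosen with earlier results of these data known. Their counts are therefore a description, and nothing is read from them beside the shares in liver or brain. Of 11 clock genes with an evening peak, 6 were higher without overlap under heat stress, and the list had a median of 0.61. Among these 6 were Per1 at 1.24 (SE 0.30), Dbp at 1.05 (SE 0.28) and Bhlhe41 at 2.07 (SE 0.27) on the log2 scale. The other evening genes overlapped, among them Per2 at 0.01 and Hlf at 0.07. No gene of the clock or cell type lists had an adjusted p under 0.05 in edgeR's liver test. Among the clock genes the lowest was 0.0678, for Bhlhe41. Of 3 tested clock genes with a morning peak, 2 were lower without overlap, Arntl at -1.38 and Clock at -0.71. The summed evening genes lay between 394 and 556 CPM in control and between 679 and 824 CPM in heat stress livers, and the summed morning genes between 49.9 and 68.3 against between 31.9 and 44.3 CPM. T and NK cell markers summed to between 3.36 and 7.64 CPM in control and between 12.4 and 24 CPM in heat stress livers, with 3 of 7 tested markers higher without overlap. Of other lists, 2 of 8 macrophage markers (Marco at 1.83 and Cd68 at 0.50 on the log2 scale), 2 of 7 endothelial markers (Pecam1 and Stab2), 1 of 10 hepatocyte markers (Apoa1), 1 of 8 stellate cell and fibroblast markers (Col1a2) and 1 of 2 adipocyte markers (Fabp4) were higher without overlap in the liver, beside 5.38% of all tested liver genes. Sums of hepatocyte, macrophage, B cell, cholangiocyte, stellate cell, endothelial and adipocyte markers overlapped between the liver groups, and no defining marker of these lists was at 0 in all liver libraries. The part of clock genes and of T and NK cells in the values of the 8 genes was not tested. In the brain, where the shares over all tested genes were 12.9% upward and 12% downward, 4 of 11 evening genes were higher and 2 of 4 morning genes lower without overlap. T and NK cell markers summed to between 4.37 and 6.02 CPM in control and between 7.88 and 19.6 CPM in heat stress brains. Only 1 of these 10 markers passed the filter on low counts in the brain, and its groups overlapped. Endothelial markers summed to between 32.1 and 73.2 CPM in control and between 19.7 and 28.5 CPM in heat stress brains. Of 3 tested endothelial markers, 2 were lower without overlap (Pecam1 at -1.04 and Kdr at -1.16). Ttr, which in brain is known from the choroid plexus, was lower without overlap as well, at -1.40 on the log2 scale. Of 3 tested macrophage markers, 1 was lower without overlap in the brain (Csf1r at -0.56), while the summed macrophage markers overlapped between the groups. Their part in the brain values of the 5 genes was not tested.

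For each of the 8 genes, the most similar liver profiles among 11878 genes with a mean of at least 1 CPM were named by Pearson's r of log2 CPM over the 6 liver libraries, as a description that rests on shared libraries and groups. Foxq1 went with Lama1 (r = 0.997) and Pabpc1 (0.993), Tsc22d1 with Sec24d (0.998) and Ubqln1 (0.995), and Slc20a1 with Hexa (0.987) and Sgms1 (0.986). Slc15a2 went with Ocln (0.993) and Mxra7 (0.989), Cib3 with Frzb (0.994) and Mxd1 (0.994), Gm10804 with Acsm5 (0.997) and Csnk2a2 (0.993), and 1810019D21Rik with Pik3r3 (0.994) and Sec22b (0.991). Tifa went with Tapt1 (0.992) and with Klf10 (0.994), a zinc finger gene induced by transforming growth factor beta. Klf10 stood at 19.6, 26.3 and 27 CPM in the control livers and at 52.4, 26.3 and 54.5 CPM in the heat stress livers. As with Tifa, heat stress livers 1 and 3 were high and heat stress liver 2 was at the level of the controls. A high r does not mean a like size of change, since the log2 difference was 4.20 for Gm10804 and 0.23 for Acsm5.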

How the data were processed

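Libraries were prepared with a stranded kit after selection of messenger RNA. The authors deposited raw read counts per gene symbol, with a column for each of the 12 libraries, and the submitters' processing notes name HISAT2 2.2.1, featureCounts of Subread 2.0.1 and the build mm10. A second paragraph of the methods names Tophat2 and HTSeq, and the annotation and strand setting are not given in the sources used here. The deposited tables of fold changes and p-values by the authors were not used. Counts were fitted per tissue in R 4.3.3 with edgeR 4.0.16 (TMM, filterByExpr at its minimum count of 10 and total of 15, robust quasi-likelihood test, Benjamini-Hochberg adjustment over all tested genes), with DESeq2 1.42.0 as an alternative. The fits were tested on simulated data with 200 changed genes per tissue. Of these, edgeR recovered 196 in brain and 184 in liver, with 14 and 20 false calls. DESeq2 recovered 195 and 185, with 28 and 34 false calls. Standard errors are the log2 fold change over the root of the F statistic. Groups do not overlap where every library of one lies above every library of the other. The smallest p that exact permutation of 3 against 3 libraries can give is 0.1. The mice of a group are separate animals per the study's methods. Coordinates and exon lengths come from GENCODE M21 on GRCm38 and promoter windows from RefSeq (250 bases before to 50 after a start). Named were all 8 genes, relatives that separated the liver groups or had the highest levels, the 2 most similar genes of each, and overlapping or neighbouring genes. Relatives named for other reasons were chosen after their values were seen. The members and lists were chosen with earlier results of these data known. Alternatives were other normalizations, DESeq2, other filters, a replicate block, the column suffix as a covariate and each library left out.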

Additional observations from a re-analysis of the deposited data

How the results depend on the processing

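For the 6 genes whose liver groups do not overlap, leaving out a library can neither turn the direction nor make the groups overlap, so these settings bear on the size alone. The log2 difference of Foxq1 was 1.83 with all libraries and 2.25 without both libraries with muscle transcripts, a move about as large as the pooled SD of its replicates. The count of genes that separated the liver groups was 6 under each normalization and between 6 and 8 with a library left out, where it could not fall. It was 7 without control replicate 3, which added Slc15a2, and 8 without heat stress replicate 2, which added Slc15a2 and Tifa. Of all tested liver genes, 20.1% separated the groups in either direction in the former setting and 20.4% in the latter, and between 16.4% and 31.8% over the 6 libraries left out in turn. edgeR called 0 liver genes with all libraries, 25 without control replicate 1, 81 without both libraries with muscle transcripts, 14 with all 12 libraries in a single fit, 8 with no filter, 6 with the suffix as a covariate, 2 with upper-quartile factors and 1 with the replicate block or without heat stress replicate 2. With the column suffix as a covariate, added after seeing the data, Tifa moved to 0.46 and Slc15a2 to 1.23. Suffix and muscle transcripts cannot be told apart among the heat stress livers, so neither setting isolates one of them. In the brain, with a library left out, between 0 and 2 of the 5 genes separated the groups. These were Slc20a1 and Tifa without control replicate 2, Slc15a2 and Tifa without heat stress replicate 1, and Foxq1 without heat stress replicate 2. Of all tested brain genes, 45.4%, 34.3% and 31.7% separated in these settings, in the same order. Leave-one-out log2 differences in the brain ran from -0.02 (without control replicate 3) to 0.18 for Tsc22d1 and from -0.21 to 0.03 (without control replicate 1) for Slc20a1, which was 0.01 without heat stress replicate 1, so their signs are not settled. Over all alternatives the adjusted p of the 5 brain tests lay between 0.226 (Slc15a2) and 0.998 (Foxq1). DESeq2 called 618 brain genes where edgeR called 0, and the cause was not tested. The replicate numbers did not pair the samples (correlations of same-numbered deviations -0.289, 0.19 and -0.2 in brain and -0.584, -0.509 and -0.089 in liver), and with the replicate block edgeR called 0 brain genes and 1 liver gene. Depth limits Gm10804, Cib3 and Slc15a2 most, which had at most 126 counts in any liver library.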
